A study of Caenorhabditis elegans with 2 samples.

Results

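Binding of ELT-3 was examined at 10 genes of the osmotic stress and glycerol response of the nematode Caenorhabditis elegans: gpdh-1, gpdh-2, hmit-1.1, hmit-1.2, osm-7, osm-8, osm-11, osr-1, wnk-1 and ptr-23. They were taken by name and not by a cut-off on the lists, but with earlier results of these data known. They are 10 of the 19973 nuclear protein-coding genes of the annotation. The factor ELT-3, an epidermal member of the GATA family, was profiled by ChIP-seq in 2 biological replicates of whole L1 larvae, the stage after hatching, which form 1 group. The strain was OP75, with the unc-119(ed3) allele on chromosome III and the transgene wgIs75, from which ELT-3 is expressed with a GFP and FLAG tag at its C terminus. Males and females were pooled, the age is given as unknown, chromatin was sheared by sonication, and no osmotic treatment or second genotype is described. The control that the peak calls drew on was not analysed here. Whole animals were used, so tissues are not separated, and strong binding in few cells cannot be told apart from weak binding in many. The data were 4 peak lists on the ce11 build: an IDR set of 1014 peaks, a pooled list of 30000, a replicate 1 list of 17087 and a replicate 2 list of 7079. The IDR set is the one thresholded on the irreproducible discovery rate, a filter for peaks of similar rank in the replicates.

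The other lists are labelled as peaks and background, so their entries are called rows here, and not every row need be a binding site. A row was given to a gene when its summit lay from 5 kb upstream of the annotated 5′ end to the gene end. The authors' signal, a value per row whose scale differs between lists, ranked the rows within a list, with rank 1 the highest. Of the 1014 IDR peaks, 0 had the start and end of a pooled row and 989 overlapped one, so how the IDR set relates to the pooled rows is not known here. The lowest signals listed were 46.2 in the IDR set, 14.2 in the pooled list, 7.60 in replicate 1 and 15.5 in replicate 2, and weaker binding could not be seen. Read depth is unknown, and ranks from lists of different length show no change between them.

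Worms in salty surroundings lose water and counter this by making and keeping glycerol. The glycerol-3-phosphate dehydrogenases GPDH-1 and GPDH-2 catalyse its synthesis, and gpdh-1 is strongly induced in intestine and epidermis by high salt, for which GATA factors including ELT-3 are reported to be needed. HMIT-1.1 and HMIT-1.2 are proton-coupled myo-inositol transporters, inositol being another osmolyte. OSM-7, OSM-8, OSM-11 and OSR-1 act on the other side: worms that lack any of them resist hypertonic conditions, and those without OSM-7, OSM-8 or OSM-11 hold raised glycerol without salt.

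The sequences on which the results turn are shown here from the ce11 genome (assembly WBcel235), each 5′ to 3′ on the strand of its gene. Capitals mark WGATAR, the GATA-factor consensus with A or T in place of W and A or G in place of R, searched on both strands, so TTATCA is TGATAA read from the opposite strand and CTATCT is AGATAG. The first pair are the whole IDR peaks of osm-11 (chrX:17421825-17422080, minus strand) and wnk-1 (chrIV:9198265-9198520, plus strand), shown because they are the IDR peaks found. The gpdh-2 sequence runs 50 bases to each side of the summit of a pooled row in an intron (chrIII:9858272-9858372, minus strand), shown for its pair of sites in opposite orientation. The osm-7 sequence is drawn in the same way around the highest replicate 1 row (chrIII:13574218-13574318, plus strand). The hmit-1.1 sequence is the 130 bases before the annotated 5′ end (chrV:18516659-18516788, plus strand), shown because its 4 sites lay under no row of any list.
osm-11 IDR peak: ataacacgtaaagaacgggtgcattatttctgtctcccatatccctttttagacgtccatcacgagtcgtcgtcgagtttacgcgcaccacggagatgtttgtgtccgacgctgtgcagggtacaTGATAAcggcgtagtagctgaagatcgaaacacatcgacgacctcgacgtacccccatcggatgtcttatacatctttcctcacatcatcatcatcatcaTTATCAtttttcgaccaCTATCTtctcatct
wnk-1 IDR peak: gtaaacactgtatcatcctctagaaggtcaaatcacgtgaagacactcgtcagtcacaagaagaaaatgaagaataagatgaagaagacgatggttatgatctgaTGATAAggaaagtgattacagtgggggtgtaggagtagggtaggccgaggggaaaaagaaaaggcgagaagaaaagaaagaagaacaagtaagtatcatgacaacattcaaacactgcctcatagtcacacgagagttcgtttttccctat
gpdh-2 intronic row: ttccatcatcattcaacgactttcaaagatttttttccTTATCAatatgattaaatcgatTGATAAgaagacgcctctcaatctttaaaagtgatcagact
osm-7 upstream row: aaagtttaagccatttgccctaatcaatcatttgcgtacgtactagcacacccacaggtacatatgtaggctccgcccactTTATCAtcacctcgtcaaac
hmit-1.1 upstream: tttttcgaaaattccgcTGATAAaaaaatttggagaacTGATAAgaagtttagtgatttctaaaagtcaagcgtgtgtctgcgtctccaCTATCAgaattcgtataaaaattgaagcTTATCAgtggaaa

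ELT-3 peaks of the IDR set lay at 2 of the 10 osmotic genes, osm-11 and wnk-1, while 7.01% of all protein-coding genes had such a peak. Among the 1014 rows of the pooled list with the highest signal, 3 of the 10 genes had a row, the added gene being ptr-23, compared with 7.74% of all genes. The whole pooled list held rows at 9 of the 10, and 87.2% of all genes had one, so the count says little. In replicate 1 the count was also 9 of 10, beside 69.3% of all genes. In replicate 2 it was 6 of 10 (gpdh-1, gpdh-2, osm-7, osm-11, wnk-1 and ptr-23), beside 37.8% of all genes. The same 6 genes had rows in both replicates, beside 33.5% of all genes, and at 5 of them, all but osm-7, rows of the replicates overlapped by at least 1 bp, beside 25% of all genes. The gene osr-1 was the only 1 of the 10 without a row in any list, as were 9.62% of all genes. With 10 genes named for their function, and with earlier results known, these counts are descriptions. The windows of the osmotic genes were also longer, with a median of 9439 bp against 7027 bp for all genes.

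**Figure D1:**
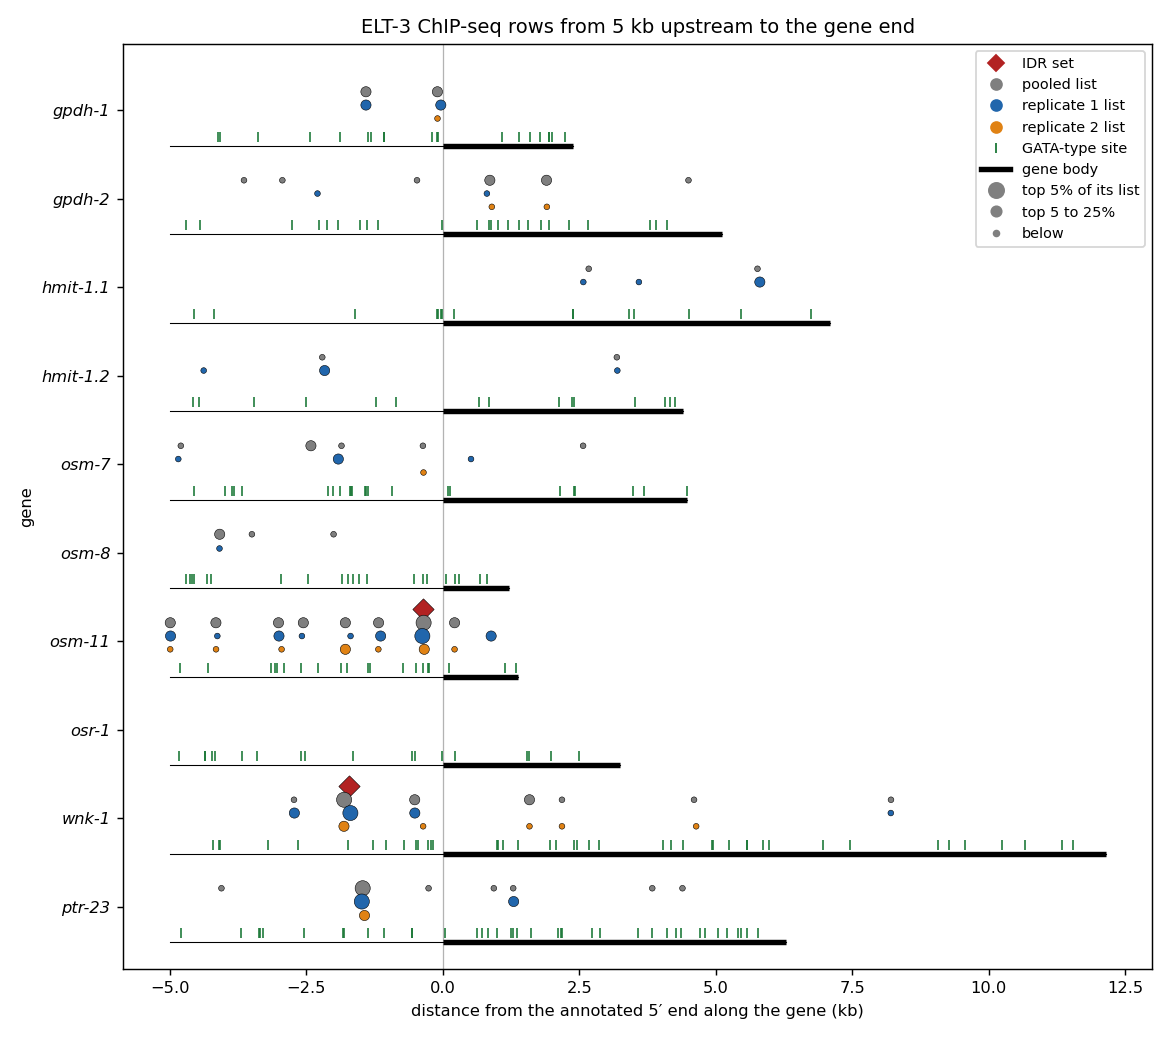
Summits of the rows given to each osmotic gene, by distance in kb from the annotated 5′ end (negative is upstream), with the IDR set as red diamonds and the pooled, replicate 1 and replicate 2 lists as grey, blue and orange circles whose size gives the rank class within the list. Green ticks are WGATAR sites and the thick line is the gene; red diamonds stand at osm-11 and wnk-1 alone, and osr-1 has no symbol.

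The 10 genes differed in rank as follows. At osm-11, wnk-1 and ptr-23 the highest row stood among the first 1014 in each of the pooled and replicate lists. At gpdh-1, gpdh-2 and osm-7 both replicates held rows, but at lower ranks or at different positions. At hmit-1.1, hmit-1.2 and osm-8 replicate 2 held none, and osr-1 had no row at all. Each replicate list was also counted from its top. Within the first 15% of replicate 1, 7 of the 10 genes were reached, along with 16.9% of all genes. Within the first 14% of replicate 1 only 4 of the 10 were reached, along with 15.98% of all genes. The count of 7 therefore depends on the cut-off. Within the first 15% of replicate 2, 3 of the 10 were reached, along with 7.97% of all genes. The 7 include hmit-1.1 and hmit-1.2, which share the row that counts for them.

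**Figure D2:**
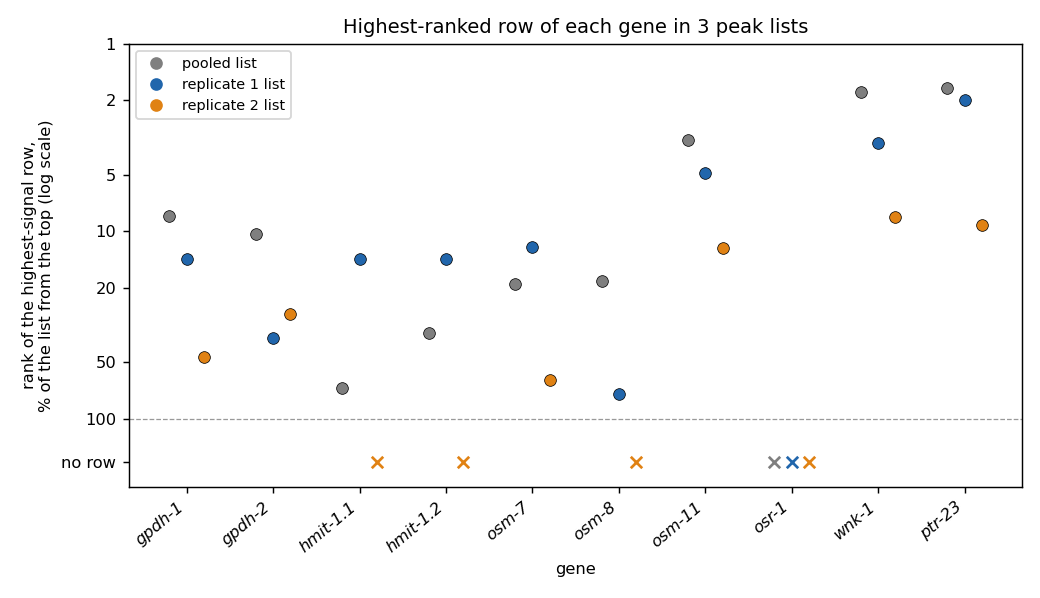
Rank of the highest-signal row of each osmotic gene, as a percentage of its list counted from the top on a log scale, in the pooled (grey), replicate 1 (blue) and replicate 2 (orange) lists, with crosses where a list held no row. The points of osm-11, wnk-1 and ptr-23 are nearest the top in each list, and crosses stand at hmit-1.1, hmit-1.2 and osm-8 for replicate 2 and at osr-1 for all 3 lists.

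**Figure D3:**
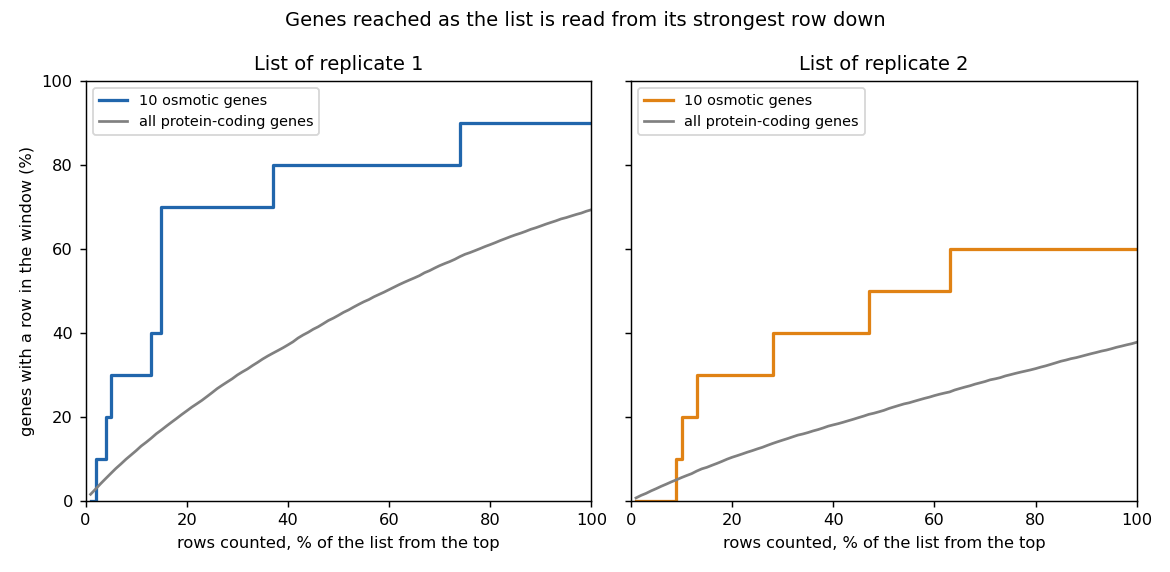
Share of genes with a row in the window as each replicate list is read from its highest signal down, for the 10 osmotic genes (steps) and for all protein-coding genes (grey line). In replicate 1 the osmotic genes reach 90% and all genes 69.3%, and in replicate 2 they reach 60% and 37.8%.

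At gpdh-1, the gene reported to need ELT-3 for induction, both replicates held a row over the promoter, at modest rank. The gene (WBGene00009824; I, 14075837 to 14078211, plus strand) had its pooled summit 99 bp upstream of the 5′ end, with a signal of 36.6 and rank 2474. The replicate 2 summit was at the same position, with a signal of 20.8 and rank 3299, and the replicate 1 summit was 37 bp upstream, with a signal of 13.9 and rank 2977. Both signals were above the medians of their lists, which were 9.67 in replicate 1 and 20.2 in replicate 2, though in replicate 2 by little. Of all genes, 16.2% had a pooled row ranked at least as high, and 20.4% had such a row in replicate 2. No IDR peak was near, the closest summit being 79503 bp away, and 34.9% of the pooled rows ranked as high overlapped an IDR peak.

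The gpdh-1 promoter was dense in GATA-type sites. It held 3 WGATAR sites within 250 bp upstream, all of them TGATAA on the strand opposite to the gene, and 5.12% of all genes had as many in that window while 49.1% had any. The sites were 199, 98 and 80 bp upstream, and the last 2 lay under the rows of both replicates. The site at 98 bp was 1 bp from the summit of the pooled and replicate 2 rows. A second row 1408 bp upstream was listed in replicate 1 (signal 15.2, rank 2402) and in the pooled list (signal 31.2, rank 3365), with a TGATAA 29 bp from its summit, but not in replicate 2.

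At gpdh-2, the other glycerol-3-phosphate dehydrogenase gene of the 10, the rows with the highest ranks lay inside the gene. The gene (WBGene00010778; III, 9854074 to 9859183, minus strand) has 4 annotated transcript starts, and the site shared by the replicates was in an intron close to a later start. Its summit was 807 bp from the annotated 5′ end in replicate 1 (signal 10.7, rank 6303), 897 bp in replicate 2 (signal 19.5, rank 3829) and 861 bp in the pooled list (signal 24.3, rank 6070). These summits were 143, 233 and 197 bp from the nearest transcript start of gpdh-2. The replicate 1 signal was little above the median of its list, 9.67, and the replicate 2 signal was below its median of 20.2. The TGATAA pair in the gpdh-2 sequence above, at bases 39 and 61 and in opposite orientation, lay under the rows of both replicates. The replicate 2 row with the highest signal, 27.2 at rank 1954, lay 1905 bp into the gene, and a pooled row of signal 32.6 and rank 3090 was 1899 bp in, but replicate 1 had none there. Rows more than 2 kb upstream lay within the neighbouring gene twk-48. At both gpdh genes the sites shared by the replicates held TGATAA within 50 bp of the summit in each of the 3 lists.

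The inositol transporter genes had rows in replicate 1 and the pooled list but not in replicate 2, and none had a WGATAR within 50 bp of its summit. The genes hmit-1.1 (WBGene00013073; V, 18516789 to 18523875) and hmit-1.2 (WBGene00013074; V, 18524760 to 18529156) lie in tandem on the plus strand, 884 bp apart, so their windows overlap. The highest replicate 1 row of both was the same one, in an intron of hmit-1.1 and 2165 bp upstream of hmit-1.2, with a signal of 15.2 and rank 2413 in replicate 1 but a signal of 16.4 and rank 20543 in the pooled list. Of the 2413 replicate 1 rows ranked at least as high, 2000 (82.9%) overlapped a row of replicate 2. That share counts all rows from rank 1 down. It was 98.7% for the first 833 rows and 87.6% for the first 2071. It therefore does not give the share among rows near rank 2413, where overlap was less common. The other replicate 1 rows ranked between 5864 and 10579, among them a row in a coding exon of hmit-1.2 at rank 7743 (signal 9.98), which the pooled list had at rank 10401 (signal 20.4). The hmit-1.1 promoter shown above has 4 WGATAR sites, of which the nearest is 11 bp and the farthest 111 bp upstream, and 225 of all genes (1.13%) had as many within 250 bp. None of the 4 lay under a row of any list.

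At osm-11, a peak just upstream of the gene stood in every list. OSM-11 is a secreted protein with the DOS motif of Notch co-ligands. The IDR peak had its summit 371 bp upstream of the 5′ end (osm-11, WBGene00003891; X, 17420211 to 17421582, minus strand), in intergenic sequence, with a signal of 51.7 and rank 805. The row of the pooled list had a signal of 60.1 and rank 974, that of replicate 1 a signal of 24.99 and rank 833, and that of replicate 2 a signal of 40.3 and rank 863. The replicate summits lay 35 bp apart, so both libraries placed the peak at the same position. Of all genes, 6.35% had a row ranked at least as high in replicate 1 and 6.55% in replicate 2. In the osm-11 sequence shown above, TGATAA begins at base 126 of 256, and its centre is 1 bp from the IDR summit. A second TGATAA and an AGATAG on the opposite strand, at bases 226 and 243, lay nearer the gene, and all 3 sites were covered by rows of both replicates.

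The osm-11 window held many rows for its length of 6372 bp. There were 8 rows in the pooled list, 8 in replicate 1 and 7 in replicate 2, and 32 genes of all protein-coding genes (0.160%) had at least as many in both replicates. They formed 9 distinct sites, 6 of which had rows of both replicates. The next site had its pooled and replicate 2 summits 1785 bp upstream, with a signal of 47.1 and rank 1569 in the pooled list and 34.9 and rank 1172 in replicate 2, but rank 7126 in replicate 1 with a signal of 10.2. A site farther out went the other way, with rank 1313 in replicate 1 (signal 20.2, 3001 bp upstream) and rank 4576 in replicate 2 (signal 18.1, 2953 bp upstream). Beyond the peak next to the gene, the replicates thus ordered these sites differently. A site with summits 1139 bp upstream in replicate 1 (signal 12.7, rank 3802) and 1181 bp upstream in replicate 2 (signal 24.4, rank 2368) held no WGATAR. Neither did the site 4130 bp upstream in replicate 1 (signal 10.9, rank 5855) and 4154 bp in replicate 2 (signal 16.2, rank 6161). The outermost site, described below, held none either. Sites of both replicates therefore included some without the motif. Inside the gene the replicates differed, with a replicate 1 row at 885 bp, in the 3′ UTR (signal 14.7, rank 2604), and a replicate 2 row at 215 bp, in a coding exon (signal 24.9, rank 2276). The outermost site, with its replicate 1 summit 4987 bp upstream and rank 2079, and its replicate 2 summit 4993 bp upstream and rank 3994, was nearer the 5′ end of pbo-6 than that of osm-11. So was the site at 4130 and 4154 bp, which makes 2 of the 6 sites with rows of both replicates. Of the 20 WGATAR sites in the window, 11 lay under a row of some list and 7 under rows of both replicates. The part of the window that the rows cover was not computed, so these counts show no preference of rows for the motif.

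At osm-7, each replicate had rows upstream but at different places. OSM-7, like OSM-11, is a secreted protein with a DOS motif. In replicate 1 the highest row lay 1914 bp upstream (osm-7, WBGene00003887; III, 13576182 to 13580662, plus strand), with a signal of 16.3 and rank 2071, and the pooled list had an overlapping row of signal 14.8 at rank 27369. In replicate 2 the only row lay 365 bp upstream, with a signal of 18.4 and rank 4393, and the pooled row at that position had a signal of 18.5 and rank 14328. The osm-7 sequence above, from the replicate 1 row, holds TGATAA on the opposite strand at base 82, while the replicate 2 row had none within 50 bp. The highest pooled row, 2416 bp upstream with a signal of 24.8 and rank 5744, overlapped no row of either replicate. Thus no position near osm-7 was listed in both replicates.

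At osm-8, no row could be tied to the gene itself. OSM-8 is a mucin-like protein secreted by the epidermis. The gene (WBGene00003888; II, 7604196 to 7605406, minus strand) lies within npp-21, and its best row, 4087 bp upstream in the pooled list with a signal of 25.1 and rank 5530, was in a coding exon of lips-17. Replicate 1 placed the row 4099 bp upstream with a signal of 8.49 and rank 12639, in the lower part of its list, and replicate 2 had none. The remaining pooled rows were in introns of npp-21 and lips-17, and none of the osm-8 rows had a WGATAR within 50 bp of the summit.

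At ptr-23, the pooled and replicate 1 rows ranked higher than those of the other 9 genes, yet no IDR peak was listed. PTR-23 is a patched-related membrane protein that is needed for the resistance of osm-8 mutants. The row lay 1468 bp upstream of the 5′ end in the pooled list (ptr-23, WBGene00004237; I, 14906792 to 14913083, plus strand), with a signal of 78.3 and rank 513. In replicate 1 the summit lay 1484 bp upstream with a signal of 35.0 and rank 341, and in replicate 2 it lay 1435 bp upstream with a signal of 45.3 and rank 655, a gap of 49 bp. Of all genes, 2.79% had a row ranked at least as high in replicate 1, and 5.15% in replicate 2. Of the 513 pooled rows ranked as high, 403 (78.6%) overlapped an IDR peak and 110, the ptr-23 row included, did not. The nearest IDR summit was 39138 bp from the 5′ end. Since no IDR peak is itself a row of the pooled list, what the missing peak means for this row is not known, and its cause was not tested.

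The ptr-23 row had no WGATAR within 50 bp of its summit in any of the 3 lists. The nearest, an AGATAG, was 117 bp from the summit in replicate 1 and 68 bp in replicate 2. The ptr-23 window was not poor in such sites, with 39 in all, or 3.45 per kb, the highest density of the 10 genes. An intronic row 1297 bp into the gene in replicate 1 (signal 13.8, rank 2994) and 1289 bp in the pooled list (signal 18.1, rank 15353) did hold TGATAA and AGATAA within 50 bp, but had no counterpart in replicate 2.

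At osr-1, ELT-3 rows were missing from all 4 lists. OSR-1 is a protein whose loss gives resistance to osmotic stress. The window of the gene (WBGene00016329; I, 5200259 to 5203504, minus strand) was 8246 bp long and held 18 WGATAR sites, 1 of them centred 7 bp upstream of the 5′ end. The nearest IDR summit was 108352 bp away. Since the lists hold only rows above a minimum signal, binding below those minimums was not detectable.

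At wnk-1, the IDR peak was the stronger of the 2 found at the osmotic genes. WNK-1 is a protein kinase with a role in cell volume control. Its IDR summit lay 1710 bp upstream of the annotated 5′ end (wnk-1, WBGene00006941; IV, 9200103 to 9212242, plus strand), in intergenic sequence, with a signal of 79.1 and rank 221, and 1.78% of all genes had an IDR peak ranked at least as high. The pooled row had a signal of 76.2 and rank 544, the replicate 1 row 29.2 and rank 577, and the replicate 2 row 47.0 and rank 595. The replicates placed their summits 118 bp apart, farther than at osm-11. The only WGATAR site of the peak is the TGATAA at base 106 of the wnk-1 sequence above. It was 21 bp from the IDR summit and 38 bp from that of replicate 1, but 80 bp from that of replicate 2 and 77 bp from the pooled one.

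A second wnk-1 site with rows of both replicates lay nearer the gene. Its summits were 513 bp upstream in replicate 1 (signal 18.0, rank 1678), 361 bp upstream in replicate 2 (signal 19.3, rank 3920) and 515 bp upstream in the pooled list (signal 30.4, rank 3542). The gap of 152 bp between the replicates was the largest of the 11 sites that had rows of both. A pair of AGATAG sites, 483 and 458 bp upstream, lay under the rows of all 3 lists. The nearest WGATAR was 30 bp from the summit in replicate 1 and 32 bp in the pooled list. In replicate 2 it was 97 bp away, so that row had none within 50 bp. The remaining rows were found in 1 replicate only. Replicate 1 had a row 2719 bp upstream (signal 15.3, rank 2373), nearer the 5′ end of C46C2.7, and another 8205 bp into the gene (signal 11.1, rank 5579). Replicate 2 had rows 1587 bp (signal 20.7, rank 3353), 2182 bp (signal 16.1, rank 6265) and 4640 bp (signal 15.9, rank 6619) into the gene. None of these rows had a WGATAR within 50 bp of its summit. The window of wnk-1 covers 17140 bp, at least as long as that of 96.7% of genes, and the gene has 8 annotated transcript starts. With a window that begins 5 kb upstream of the most downstream of these starts, an alternative chosen after seeing the data, the IDR peak is no longer counted for wnk-1.

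**Figure D4:**
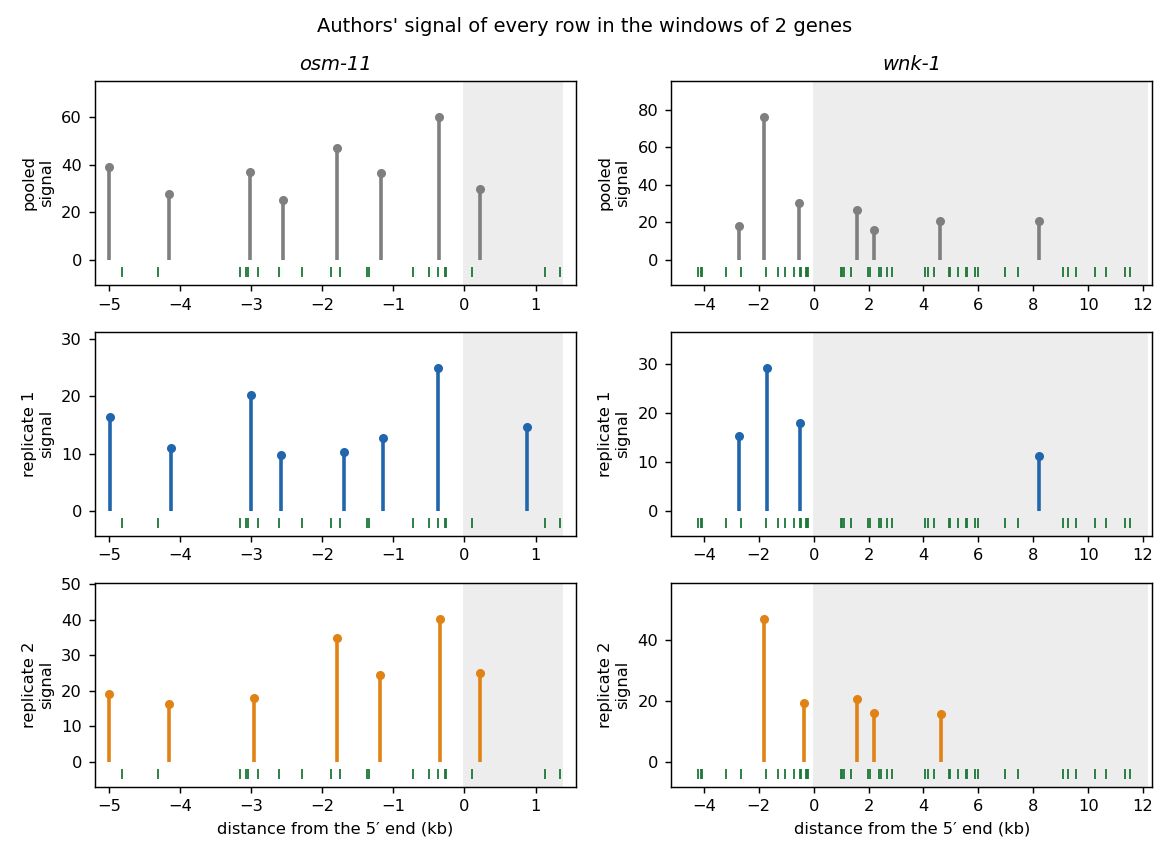
Signal as deposited, on the scale of each list, of every row in the windows of osm-11 (left) and wnk-1 (right) against the distance of its summit from the annotated 5′ end in kb, for the pooled, replicate 1 and replicate 2 lists from top to bottom. Grey shading is the gene and green ticks are WGATAR sites; in each panel the tallest line is the row that overlaps the IDR peak, at a pooled signal of 60.1 for osm-11 and 76.2 for wnk-1.

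Across the 10 genes the rows formed 45 distinct sites, and 11 of these, in 5 genes, had rows of both replicates. The summits of the replicates at these 11 sites lay 6 to 152 bp apart, with a median of 49 bp. Of the 11 sites, 8 held WGATAR somewhere in the covered sequence, and 2 were in all 4 lists. The share over all sites of this kind was not computed, so the count of 8 has no background of its own. Windows as wide as IDR peaks, 500 bp away from them, held WGATAR in 45.8% of cases. The 11 sites are merged from overlapping rows and are wider than the 2 IDR peaks shown above. A wider stretch holds the motif more often, so the 45.8% is no background for them. The windows were not richer in the motif than those of other genes, with a median of 2.47 WGATAR sites per kb (1.24 at hmit-1.1 to 3.45 at ptr-23) against 2.43 per kb in all genes (5th to 95th percentile 1.22 to 3.78).

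WGATAR lay within 50 bp of the summit at both IDR peaks of the osmotic genes, compared with 533 of all IDR summits, or 52.6% (95% Wilson interval 49.5 to 55.6%), and 21.1% of windows 500 bp away. Whole IDR peaks held the motif in 74.7% of cases, and windows of the same width 500 bp away in 45.8%. In replicate 1, 11 of 26 rows of the osmotic genes had the motif, or 42.3% (25.5 to 61.1%), against 25.9% of all rows. In the pooled list the count was 12 of 41, or 29.3% (17.6 to 44.5%), against 24.3%, and in replicate 2 it was 5 of 17, or 29.4% (13.3 to 53.1%), against 31.4%. In the pooled and replicate 2 lists, the share of all rows lay within the interval of the osmotic genes. In replicate 1 it lay just above the lower bound. With so few rows, which are also part of all rows, no conclusion on a difference is drawn. The intervals cover counting error only, and neighbouring rows of a gene are not independent.

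**Figure D5:**
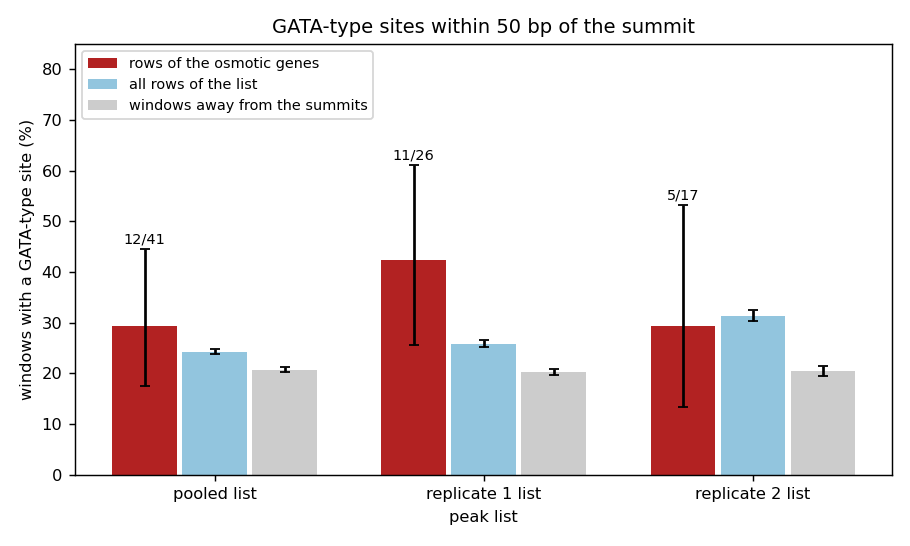
Share of windows, in percent, with WGATAR within 50 bp of the summit for rows of the 10 osmotic genes (red, with the count over the number of rows), for all rows of the list (blue) and for windows 500 bp from the summits of all rows (grey), with 95% Wilson intervals. The interval of the osmotic genes reaches from 25.5 to 61.1% in replicate 1, where all rows stand at 25.9%.

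Among 46 other genes of osmotic stress and osmolyte handling, chosen from knowledge of the pathway with earlier results known, 12 (26.1%) had an IDR summit in the same window, where 7.01% of all genes did. In the 1014 highest pooled rows the count was 10 (21.7%), and 27 (58.7%) had overlapping rows of both replicates, where 7.74% and 25% of all genes did. As these genes were picked by hand, no test was made. Their windows were not compared in length with those of all genes, and windows run to the gene end. The IDR summit given to unc-43 lay 19084 bp into the gene, and that of daf-16 7691 bp. The genes dpy-2 and dpy-10 had the same best ranks, 821 in the pooled list, 1217 in replicate 1 and 739 in replicate 2. The list includes elt-3 itself, which had the highest IDR signal, 281 at rank 1, in a strain that carries a tagged elt-3 transgene, whose part in that signal was not tested. The other genes with the highest signals were the antimicrobial peptide gene nlp-29, at rank 35 with 133, though its summit was nearest to nlp-31, and unc-43 (CaM kinase II), at rank 108 with 96.3 and a summit nearest to R09E10.1. Then came the p38 pathway kinase gene nsy-1 at rank 160 with 86.5, the MAP kinase phosphatase gene vhp-1 at rank 171 with 84.5, and lea-1, a late embryogenesis abundant protein gene, at rank 287 with 72.6. The FOXO factor gene daf-16 followed at rank 358 with 67.9, and the trehalose synthase gene tps-2 at rank 374 with 67.0. These are IDR ranks, and for 6 of the 8 genes the highest row in the window also stood among the first 1014 of the pooled and both replicate lists. The exceptions were nsy-1, whose highest rows ranked 1688 in the pooled list, 4232 in replicate 1 and 1347 in replicate 2, and daf-16, at 1206, 1641 and 549 in the same lists.

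A gene with a related symbol, gpdh-3, had a much higher row than gpdh-1 and gpdh-2. It is among the 12 of the 46 other genes with an IDR summit, and was chosen for description after its values were seen. Its pooled row ranked 28 with a signal of 176, its replicate 1 row ranked 70 with 54.4 and its replicate 2 row ranked 23 with 119, each with its summit 1354 bp upstream of the 5′ end. It had no WGATAR within 50 bp of the summit. In the IDR set the peak there had a signal of 50.2 and rank 858, so the same place stood near the top of 3 lists and in the lower part of the fourth. The cause of the difference was not tested.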

How the data were processed

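The values come from ChIP-seq peak lists of 2 biological replicates. The authors deposited a signal for each peak, never below 0, and a q-value score, below 0 for many pooled rows, which was not used. Per the deposited records, the lists were made from ChIP and control alignments on ce11. Aligner, peak caller and thresholds: not given in the sources used here. Lists on ce10 were not used. Each summit was given to every protein-coding gene of Ensembl release 115 on WBcel235, which is ce11, whose window from 5 kb upstream to the gene end held it. Overlap means at least 1 bp, and coordinates are 1-based. Both strands were searched for WGATAR, within 50 bp of summits and in equal windows 500 bp away. Rows were ranked by signal within each list. No test was made, since there is 1 group without a comparison.

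The members and lists were chosen with earlier results of these data known. The genes named are the 10 members, each with its IDR peaks and highest row per list, the genes nearest to those rows, and the 8 pathway genes with the highest IDR signal. The further rows described at each gene and gpdh-3 were chosen after their values were seen. All 46 pathway symbols matched a gene. Alternatives were windows of 2 and 10 kb, windows stopped at the next gene, nearest gene only, any base of the peak, the IDR peaks with signals in the upper part of the set, IDR peaks overlapped in both replicates, leaving out each replicate, and motif windows of 25 and 100 bp or the whole peak with GATA or TGATAA. Overlapping replicate rows and a window from the most downstream transcript start were added after seeing the data. Python 3.11.15, numpy 2.4.6, pandas 2.3.3, scipy 1.17.1 and matplotlib 3.10.9 were used, and the functions for windows and motifs were tested on simulated data.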

Additional observations from a re-analysis of the deposited data

How the results depend on the processing

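Of 32 alternative values for the 4 counts over the osmotic genes, 28 stayed within 1.5 times of the reported count and 4 did not. The 28 include values at exactly 1.5 times. These were 3 genes in place of 2 when each replicate was left out, and 9 in place of 6 without replicate 2. The 2 genes with an IDR summit were the same ones with windows of 2 and 10 kb, with windows stopped at the next gene, with nearest gene only, with any base of the peak, and with IDR peaks overlapped in both replicates. With the upper 50% of IDR peaks by signal, 1 gene was left, wnk-1. With a window from the most downstream transcript start, added after seeing the data, 1 gene was left, osm-11. With 1014 strongest rows in place of the IDR set, the count was 3 without replicate 1 and 3 without replicate 2, ptr-23 being added each time. The 6 genes with rows in both replicates came down to 3 (osm-11, wnk-1 and ptr-23) when each replicate was held to its 1014 strongest rows, which lists fewer rows by construction. That count was 6 without replicate 1 and 9 without replicate 2, since each then rests on 1 list. The count of 2 IDR peaks with WGATAR was 1 of 3 without replicate 1 and 2 of 3 without replicate 2. In replicate 2 the wnk-1 summit was 80 bp from its site, and the ptr-23 row had no site within 50 bp in either replicate. Read depth is unknown, the lists end at a minimum signal, and with 10 genes a change of 1 gene moves each share by 10 percentage points. No paired analysis was possible because the replicates form 1 group and the counts come from no test.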
